A study of Mus musculus with 6 samples.

Results

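The miR-26 family comprises the mature microRNAs of 3 precursor hairpins, Mir26a-1, Mir26a-2 and Mir26b. Its members were chosen by name from the count table, as both strands of each hairpin, and 5 of the 1390 mature miRNAs listed belong to it. They are mmu-miR-26a-5p, mmu-miR-26b-5p, mmu-miR-26a-1-3p, mmu-miR-26a-2-3p and mmu-miR-26b-3p, written below without the species prefix. Their reads were counted in small-RNA libraries of the thymus of 5-week-old C57BL mice. The irradiated group was 3 mice given 6 Gy of X-rays (800 cGy/min, at a distance of 40 cm), with the thymus taken 24 h later, and the control group was 3 mice that were not irradiated. No other treatment or allele is named, and the labels call the molecule polyA RNA. The labels do not tie replicates to litters or days, so the p-values measure the spread between these libraries.

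A microRNA hairpin is cut into a duplex of 2 strands. Usually 1 strand, the guide, is kept in an Argonaute protein and pairs with messenger RNAs through its seed, bases 2 to 8, while the passenger strand is degraded. The guides of the miR-26 family are the 5p strands. The hairpins lie in introns of genes for small C-terminal domain phosphatases (Ctdspl, Ctdsp2 and Ctdsp1), which act on RNA polymerase II and on the retinoblastoma protein. The guides are found in most differentiated tissues, are repressed by MYC and are known to lower the Polycomb methyltransferase Ezh2.

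The sequences show which strands can be told apart. All 5 mature sequences are given as in the deposited table and equal those of RefSeq (GRCm38.p6), 5′ to 3′, with the seed in capitals.
miR-26a-5p: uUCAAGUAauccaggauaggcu
miR-26b-5p: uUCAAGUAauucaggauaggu
miR-26a-1-3p: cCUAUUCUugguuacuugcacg
miR-26a-2-3p: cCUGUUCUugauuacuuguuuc
miR-26b-3p: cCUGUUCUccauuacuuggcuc
Both guides have the seed UCAAGUA, which no other miRNA of the table has. Compared without gaps over 21 bases and counted from 1 at the 5′ end, miR-26b-5p differs from miR-26a-5p at 2 positions, C11U and C21U. So few differences limit how exactly reads can be assigned between the guides. MiR-26a-5p is the product of both Mir26a-1 and Mir26a-2, so its reads do not report on a single locus, whereas each 3p strand is specific to 1 hairpin. MiR-26a-2-3p and miR-26b-3p share the seed CUGUUCU, also found in miR-6932-3p, and are identical at 18 of 22 bases. MiR-26a-1-3p has another seed, CUAUUCU, and matches miR-26a-2-3p at 16 of 22 bases.

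The hairpins are shown with both arms in capitals, because the results below turn on the balance between the arms.
Mir26a-1: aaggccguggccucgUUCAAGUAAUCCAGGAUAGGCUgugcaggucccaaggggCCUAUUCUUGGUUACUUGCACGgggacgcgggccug
Mir26a-2: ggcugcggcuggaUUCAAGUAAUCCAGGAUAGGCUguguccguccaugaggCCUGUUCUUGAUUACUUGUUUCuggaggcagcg
Mir26b: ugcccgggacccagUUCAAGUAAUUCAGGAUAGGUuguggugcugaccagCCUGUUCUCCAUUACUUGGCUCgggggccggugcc
In GRCm38, Mir26a-1 lies on the plus strand at chr9:119031796-119031885, in intron 5 of the transcript Ctdspl-201. Mir26a-2 lies on the plus strand at chr10:126995530-126995613, in intron 5 of Ctdsp2-202. Mir26b lies on the plus strand at chr1:74394310-74394394, in intron 4 of Ctdsp1-201. Each has the same strand as its host gene, and no GENCODE M21 transcript of the host that spans a hairpin has an exon over it. Folding of these sequences with RNAfold gave minimum free energies of -49.4, -44.5 and -43.5 kcal/mol for Mir26a-1, Mir26a-2 and Mir26b.

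Across the series, library totals were 7730641 to 9287017 counts, and 828 to 924 miRNAs were counted in a library. Counts were tested with edgeR, and levels are counts per fixed library total, scaled by trimmed-mean factors (TMM-scaled CPM). The thymocyte miRNAs that define the tissue were present: the summed level of 5 lymphoid markers was 93842 to 158708 CPM in control and 4223 to 6968 CPM in irradiated libraries, and 4 of the 5 fell. The 4 epithelial markers all rose, from sums of 3167 to 4006 CPM to sums of 10719 to 15829 CPM. Of 5 stromal and vascular markers 3 rose (89114 to 237986 CPM against 203802 to 322246 CPM). All 3 striated-muscle markers rose, from sums of 202 to 480 CPM in control to sums of 602 to 20113 CPM in irradiated libraries. Of 3 red-cell markers 2 rose (480 to 724 CPM in control, 604 to 5027 CPM in irradiated libraries). The muscle and red-cell sums were both highest in irradiated replicate 2. The 1 myeloid marker had 21.3 to 41.7 CPM in control and 12.0 to 83.7 CPM in irradiated libraries and was not called. By comparison, 27.7% of all 519 tested miRNAs were called higher and 33.5% lower (adjusted p under 0.05). The marker counts are read against these shares. No listed marker was at 0 in all 6 libraries. These shifts accompany every result below, and their part in it was not tested. In whole tissue, fewer cells of a type and less RNA per cell cannot be told apart.

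The 2 guides rose after irradiation, and the scarce passenger of Mir26b fell. Of the 5 members, 4 passed the low-count filter and were tested, and 3 were called, 2 higher and 1 lower. Among all 519 tested miRNAs 61.3% were called at an adjusted p under 0.05, 27.7% higher and 33.5% lower, and the number of called strands is read against these shares. Without irradiated replicate 2, the library highest in muscle and red-cell miRNAs, the same 3 strands passed, with log2 changes of 1.51 for miR-26a-5p, 1.72 for miR-26b-5p and -1.74 for miR-26b-3p. Irradiated libraries lay wholly above control libraries for 32% of the tested miRNAs and wholly below for 36.6%.

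**Figure D1:**
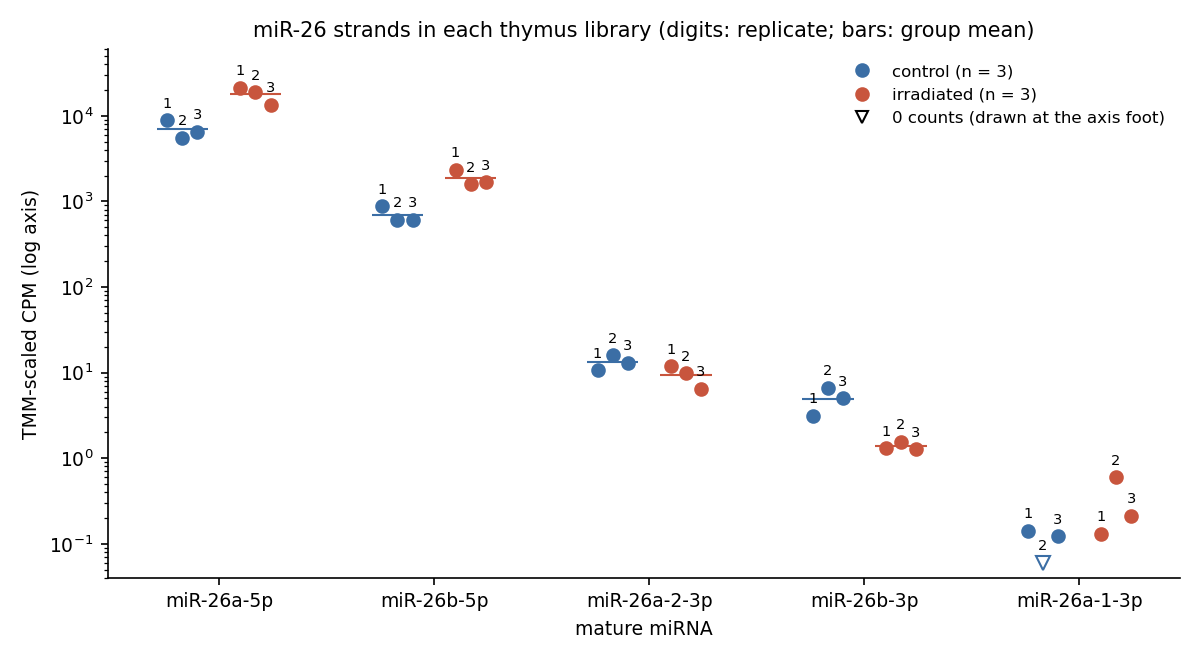
TMM-scaled CPM of the 5 miR-26 strands in each of the 6 libraries on a log axis, with the group mean as a bar (none is drawn for miR-26a-1-3p) and the replicate number beside each point. Both 5p strands are higher in all irradiated libraries, miR-26b-3p is lower in all of them, and the groups overlap for miR-26a-2-3p and miR-26a-1-3p.

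MiR-26a-5p is the dominant guide of the family. Control replicates 1, 2 and 3 had 8899, 5561 and 6562 CPM, and irradiated replicates 1, 2 and 3 had 21234, 18743 and 13540 CPM. Every irradiated library was above every control library, and the lowest irradiated value was that of replicate 3. The mean went from 7007 ± 1713 to 17839 ± 3926 CPM (SD, n = 3 per group). The log2 fold change was 1.35 ± 0.28 (SE), a 2.55-fold rise, with a 95% interval of 0.72 to 1.98 and an edgeR adjusted p of 0.0026. By count it ranked 20th, 23rd and 24th in control replicates 1, 2 and 3, and 6th, 10th and 10th in irradiated replicates 1, 2 and 3.

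MiR-26b-5p, the guide from the Ctdsp1 locus, was less abundant than miR-26a-5p and moved in the same direction. Control replicates 1, 2 and 3 had 881, 610 and 609 CPM, and irradiated replicates 1, 2 and 3 had 2350, 1585 and 1675 CPM. The groups did not overlap. The mean went from 700.1 ± 157 to 1870 ± 419 CPM (SD, n = 3 per group). The log2 fold change was 1.42 ± 0.27 (SE), a 2.67-fold rise, with a 95% interval of 0.81 to 2.02 and an edgeR adjusted p of 0.0016.

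The ratio of the guides to each other overlapped between the groups. Within a library, the log2 ratio of miR-26a-5p to miR-26b-5p was 3.34, 3.19 and 3.43 in control replicates 1, 2 and 3, and 3.18, 3.56 and 3.01 in irradiated replicates 1, 2 and 3. The means differed by -0.066 (exact two-sided permutation p of 0.7, 0.8 after adjustment over 8 within-library ratios). With 3 against 3 libraries no p under 0.1 was possible, so a difference of any size could not have been called. The difference was 0.052 without irradiated replicate 3. Without irradiated replicate 2 it was -0.22, with both remaining irradiated values below all control values (exact p of 0.2). MiR-26a-5p made up 90.6% ± 0.763 (SD, n = 3) of the family's counts in control libraries and 90.4% ± 1.64 (SD, n = 3) after irradiation.

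The family as a whole took a larger share of the library after irradiation. Its 5 strands held 0.806%, 0.863% and 0.711% of the counts in control replicates 1, 2 and 3. They held 2.09%, 1.997% and 1.54% in irradiated replicates 1, 2 and 3. Exact (Clopper-Pearson) 95% binomial intervals, which cover counting error only, were narrow against these differences, as with 1.54% to 1.55% for irradiated replicate 3. The mean share went from 0.793% ± 0.0768 to 1.88% ± 0.291 (SD, n = 3 per group), which is 2.36 times higher. The exact two-sided permutation p was 0.1, the smallest that 3 against 3 libraries allow.

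The 3 passenger strands were scarce, and 1 of them was called. MiR-26b-3p, the passenger from the Ctdsp1 locus, had 22, 72 and 41 counts in control replicates 1, 2 and 3 and 10, 13 and 12 counts in irradiated replicates 1, 2 and 3. In CPM these were 3.14, 6.68 and 5.03 in control and 1.305, 1.55 and 1.27 in irradiated libraries. All irradiated libraries were below all control libraries, and each was above the 3 counts that a count of 0 allows. The log2 fold change was -1.85 ± 0.399 (SE), a 3.60-fold fall, with a 95% interval of -2.74 to -0.96 and an edgeR adjusted p of 0.0031. MiR-26b-3p was well past the low-count filter in its control libraries, while its irradiated counts lay close to the cutoff. A strand so scarce that enters mainly through its control libraries is selected towards a fall. With no low-count filter, over 1244 miRNAs, the log2 change was -1.90 and passed (edgeR adjusted p of 8.4e-04). Both values rest on few reads after irradiation.

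MiR-26a-2-3p, the passenger from the Ctdsp2 locus, had 75, 171 and 106 counts in control replicates 1, 2 and 3 and 91, 82 and 61 counts in irradiated replicates 1, 2 and 3. Its levels were 10.7, 15.9 and 13.003 CPM in control and 11.9, 9.79 and 6.48 CPM in irradiated libraries, and the groups overlapped through irradiated replicate 1. The log2 fold change of -0.50 ± 0.34 (SE) did not pass (95% interval -1.25 to 0.26, edgeR adjusted p of 0.22). With upper-quartile factors the value was -0.048.

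MiR-26a-1-3p, the passenger from the Ctdspl locus, was close to undetected. It had 1, 0 and 1 counts in control replicates 1, 2 and 3 and 1, 5 and 2 counts in irradiated replicates 1, 2 and 3, against a limit of 3 counts for a library with none. It did not pass the filter and no fold change is given. Among the reads that name one of the 26a loci, the Ctdsp2 hairpin therefore held nearly all. These are reads of passenger strands only, so they do not show how much miR-26a-5p each locus made. MiR-26a-1-3p was 0% to 1.32% of the reads of both 26a passengers in control libraries and 1.09% to 5.75% in irradiated libraries. Exact 95% binomial intervals were as wide as 1.89% to 12.9% in irradiated replicate 2. Its log2 ratio to miR-26a-2-3p differed by 1.92 between groups with overlapping values (exact two-sided permutation p of 0.2, 0.267 adjusted over the 8 ratios). This difference was 1.08 without control replicate 2 and 1.26 with 2 added to each count. Its log2 ratio to miR-26a-5p differed by 0.057 (exact p of 0.9), and was -0.49 without control replicate 2 and -0.40 without irradiated replicate 2.

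**Figure D2:**
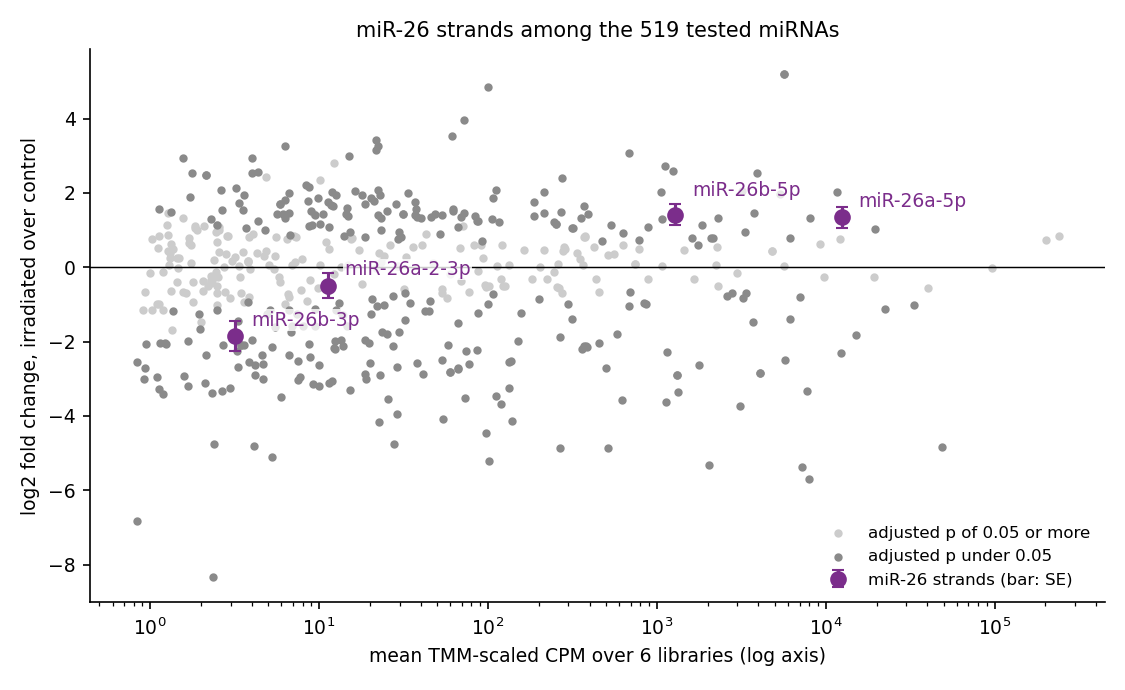
Log2 fold change of irradiated over control against the mean TMM-scaled CPM (log axis) for the 519 tested miRNAs, with the 4 tested miR-26 strands and their SE in purple and miRNAs past an adjusted p of 0.05 in dark grey. The 2 guides lie at 1.35 and 1.42 on the right and the 2 passengers at -0.50 and -1.85 on the left.

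The balance of the arms could be compared within each library, where no scaling factor enters. For Mir26b, miR-26b-3p was 0.355%, 1.08% and 0.819% of the reads of both arms in control replicates 1, 2 and 3. It was 0.0555%, 0.0978% and 0.07600% in irradiated replicates 1, 2 and 3. The widest exact 95% binomial interval in the irradiated group was 0.0521% to 0.167%, and the lowest control interval was 0.222% to 0.537%. The groups were thus apart beyond the counting error that these intervals cover. The log2 ratio of passenger to guide went from -7.17 ± 0.832 to -10.3 ± 0.402 (SD, n = 3 per group), a difference of -3.16 or 8.94-fold. The exact two-sided permutation p was 0.1, the smallest possible, and 0.16 adjusted over the 8 ratios.

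For Mir26a-2 the shift was in the same direction. MiR-26a-2-3p was 0.120%, 0.285% and 0.198% of the combined reads of miR-26a-2-3p and miR-26a-5p in control replicates 1, 2 and 3. It was 0.0559%, 0.0522% and 0.0478% in irradiated replicates 1, 2 and 3, all below the lowest control library. The log2 ratio went from -9.04 ± 0.623 to -10.9 ± 0.111 (SD, n = 3 per group), a difference of -1.87 or 3.64-fold (exact two-sided permutation p of 0.1, 0.16 adjusted over the 8 ratios). Since miR-26a-5p also comes from Mir26a-1, this ratio is not that of 1 hairpin.

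The same ratio was fitted with limma across the 132 precursors that RefSeq lists with a 5p and a 3p strand and of which both were tested. In this fit the 3p-to-5p ratio changed for 25% of the precursors at an adjusted p under 0.05, and for 9.85% the less abundant arm became relatively rarer. The ratio of Mir26b changed by -3.16 (95% interval -4.15 to -2.17, limma adjusted p of 7.6e-04) and that of Mir26a-2 by -1.87 (95% interval -2.63 to -1.10, limma adjusted p of 0.0033). Over all 132 precursors the median change of the less abundant against the more abundant arm was 0.20. Mir26b and Mir26a-2 had the lowest and the second lowest change of these 132, and the third lowest was -1.61. With any 1 library left out, both changes passed, with limma adjusted p of 1.1e-08 to 0.0328 for Mir26b and 1.8e-07 to 0.0344 for Mir26a-2. Over these fits the change lay between -3.63 and -2.83 for Mir26b and between -2.19 and -1.57 for Mir26a-2. The lowest adjusted p of each came without irradiated replicate 1, where the changes were -2.95 for Mir26b and -1.92 for Mir26a-2. These p-values thus did not follow the size of the change. A smaller p from fewer libraries is not read as stronger evidence.

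Less abundant arms that are high in only 1 group reach the filter through that group, so the order among the 132 precursors is a description. The fit was therefore also made, after seeing the data, on the 138 precursors whose arms each had a mean of at least 1 CPM over all 6 libraries. This choice treats the groups alike, but an arm high in only 1 group can still meet it. In this fit 21% of the precursors changed. The adjusted p from limma was 0.0017 for Mir26b and 0.0039 for Mir26a-2. These had the lowest and the second lowest change of the less abundant against the more abundant arm, an order that is again a description.

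**Figure D3:**
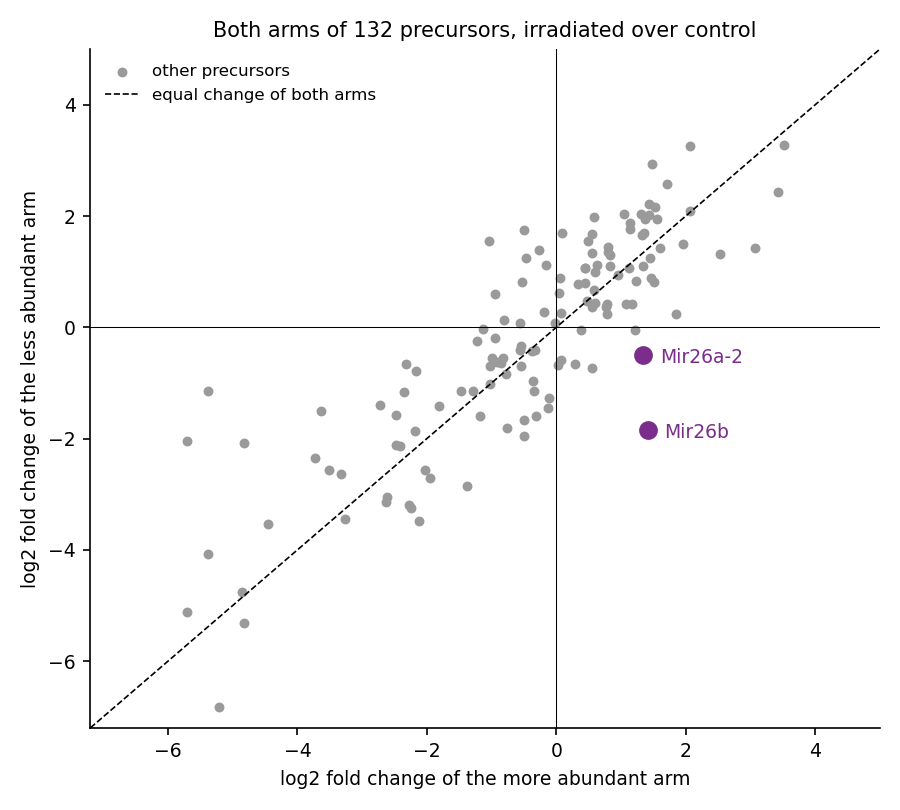
Log2 fold change (irradiated over control) of the less abundant arm against that of the more abundant arm for 132 precursors with both arms tested, with equal change as a dashed line. Mir26b and Mir26a-2 (purple) lie at the lower right, farther below the line than the other precursors.

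Other abundant families that are made in many cell types had lower mean sums after irradiation. The let-7 family, known for restraining growth genes, has 11 members in the table, and their summed level went from 147777 ± 42798 to 86984 ± 15246 CPM (SD, n = 3 per group). The log2 ratio of the miR-26 sum to the let-7 sum was -4.32, -4.18 and -4.24 in control replicates 1, 2 and 3 and -2.13, -1.85 and -2.46 in irradiated replicates 1, 2 and 3. The difference was 2.10, or 4.27-fold. The sum of 5 miR-30 guides, a family of differentiated epithelia and other tissues, went from 60435 ± 14054 to 39547 ± 12490 CPM (SD, n = 3 per group). Here the groups overlapped, with 48757 CPM in irradiated replicate 3 and 45459 CPM in control replicate 2. The log2 ratio of the miR-26 sum to the miR-30 sum went from -2.97 ± 0.347 to -0.97 ± 0.801 (SD, n = 3 per group). Its highest value, -0.10, was in irradiated replicate 1. MiR-103 and miR-107 lie in introns of pantothenate kinase genes, and like the miR-26 hairpins they are hosted by a gene family. Their sum went from 3571 ± 798 to 2208 ± 491 CPM (SD, n = 3 per group), and the log2 ratio of the miR-26 sum to it from 1.11 ± 0.516 to 3.16 ± 0.581. The number of members called in these families moved with the scaling and with single libraries and is not given here, whereas the ratios need no scaling factor. Single members did not all follow the sums. Let-7e-5p changed by 1.34 on the log2 scale, a call kept in 15 of 16 alternatives, and miR-30a-5p by 1.04, also called higher. The miR-30a-5p call was less stable, as no miR-30 guide was called higher without control replicate 2 or without irradiated replicate 3. It was also lost under the 10 CPM filter and at the 0.01 threshold. MiR-30e-5p changed by -2.32, a call kept in all 16 alternatives. No control value of these 3 ratios reached an irradiated one, and each had an exact two-sided permutation p of 0.1, or 0.16 adjusted over the 8 ratios.

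**Figure D4:**
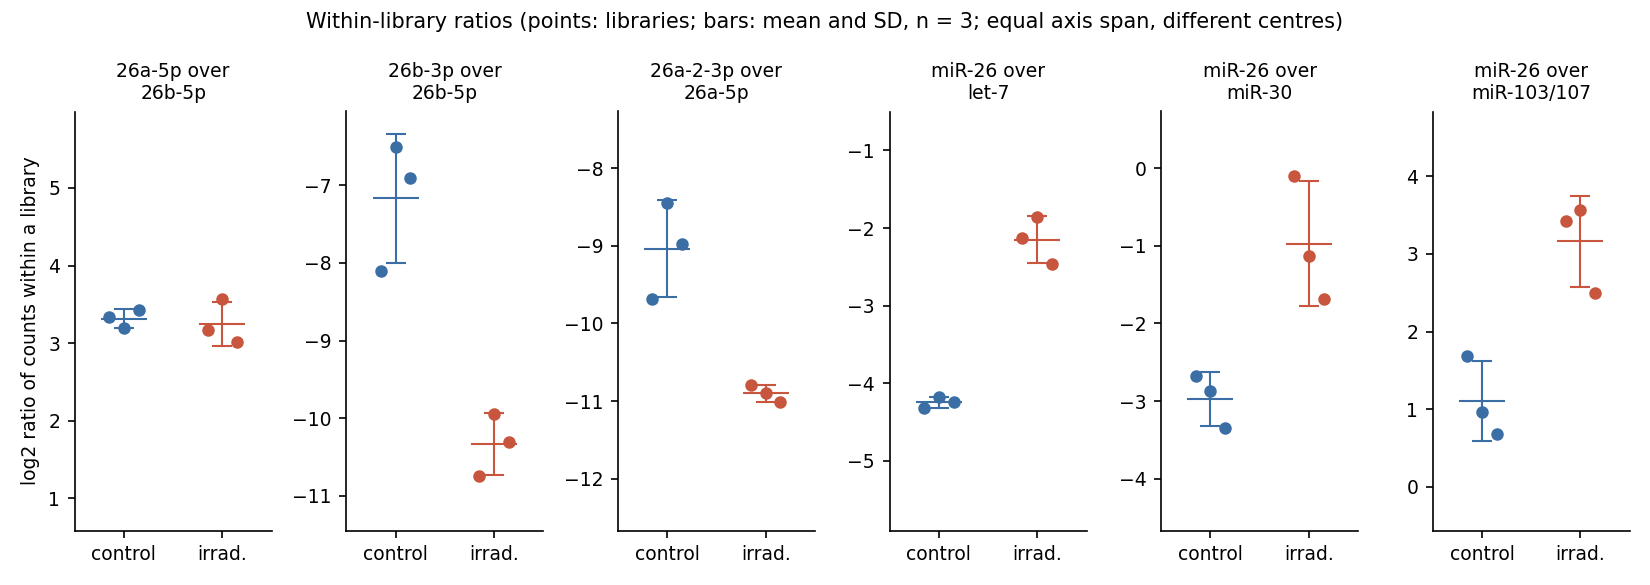
Log2 ratios of counts within each library for 6 pairs, control in blue and irradiated in red, with mean and SD (n = 3) and the same axis span around different centres. The ratio of the guides to each other overlaps between groups, the 2 passenger-to-guide ratios are lower after irradiation and the 3 ratios to other families are higher.

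The miRNAs with the profile most like that of each guide were taken from the 155 other tested miRNAs with a mean of at least 100 CPM. Likeness was the root mean square difference of centred log2 levels over the 6 libraries, a description in which all miRNAs share the libraries. For miR-26a-5p the nearest were miR-23a-3p (0.185), let-7e-5p (0.191), miR-203-3p (0.21), miR-23b-3p (0.235) and miR-100-5p (0.241), against a median of 0.884. For miR-26b-5p they were miR-100-5p (0.163), miR-203-3p (0.175), miR-205-5p (0.183), let-7e-5p (0.218) and miR-146a-5p (0.259), against a median of 0.914. The guides differed from each other by 0.18. MiR-203-3p and miR-205-5p are miRNAs of stratified epithelium, and both are on the epithelial marker list. All of these were chosen for following the guides over the same libraries, so their changes are a description with no test. The log2 change was 1.32 ± 0.23 (SE) for miR-203-3p and 1.36 ± 0.25 (SE) for miR-205-5p. It was 1.30 ± 0.29 (SE) for miR-146a-5p, a miRNA induced by inflammatory signalling.

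Other miRNAs that share a regulator or a target with miR-26 are described by counts beside those of all tested miRNAs, whose median log2 change was 0.014. Of 17 further miRNAs known to be repressed by MYC, all tested, 4 rose, 7 fell and 6 did not pass, with a median of -0.50. Among all tested miRNAs 27.7% rose and 33.5% fell, and with 17 miRNAs nothing particular to the list is read from its counts. MiR-30e-5p fell by 2.32 ± 0.26 (SE) on the log2 scale (edgeR adjusted p of 7.2e-05), and the most abundant of the list, let-7f-5p, changed by -0.55 and did not pass (0.105). The number that fell was 3 without control replicate 1, 4 without irradiated replicate 3 and 3 with upper-quartile factors.

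Of 8 further miRNAs known to be directed at Ezh2, 3 rose, 3 fell and 2 did not pass, with a median of -0.21. These counts, too, stand beside 27.7% higher and 33.5% lower among all tested miRNAs. MiR-101a-3p rose by 0.78 ± 0.23 (SE) on the log2 scale (edgeR adjusted p of 0.013), while miR-101b-3p, with a closely related sequence, fell by 0.70 ± 0.23 (0.0246). These calls turned on single libraries and on the scaling. In edgeR the number that fell was 0 without control replicate 1 or 3 or irradiated replicate 2 or 3, also at an unadjusted p under 0.05, and 1 rose without control replicate 3. The number that fell was also 0 with upper-quartile factors (0 at an unadjusted p under 0.05) and without miR-21a-5p, the most abundant miRNA (1 unadjusted), and it was 1 with median-of-ratios factors. MiR-101b-3p was at -0.26 with upper-quartile factors (edgeR adjusted p of 0.421). With all libraries, limma-voom gave 3 that fell and DESeq2 gave 0 (2 at an unadjusted p under 0.05). MiR-101a-3p did not pass without control replicate 3 (0.062) or irradiated replicate 3 (0.0566).

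The authors' deposited table gives the same directions from the same libraries, which is not separate evidence. In the authors' deposited table the log2 fold change was 1.42 for miR-26a-5p (adjusted p of 2.4e-04), 1.496 for miR-26b-5p (1.2e-04), -1.80 for miR-26b-3p (0.0052) and -0.42 for miR-26a-2-3p (0.427).

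**Figure D5:**
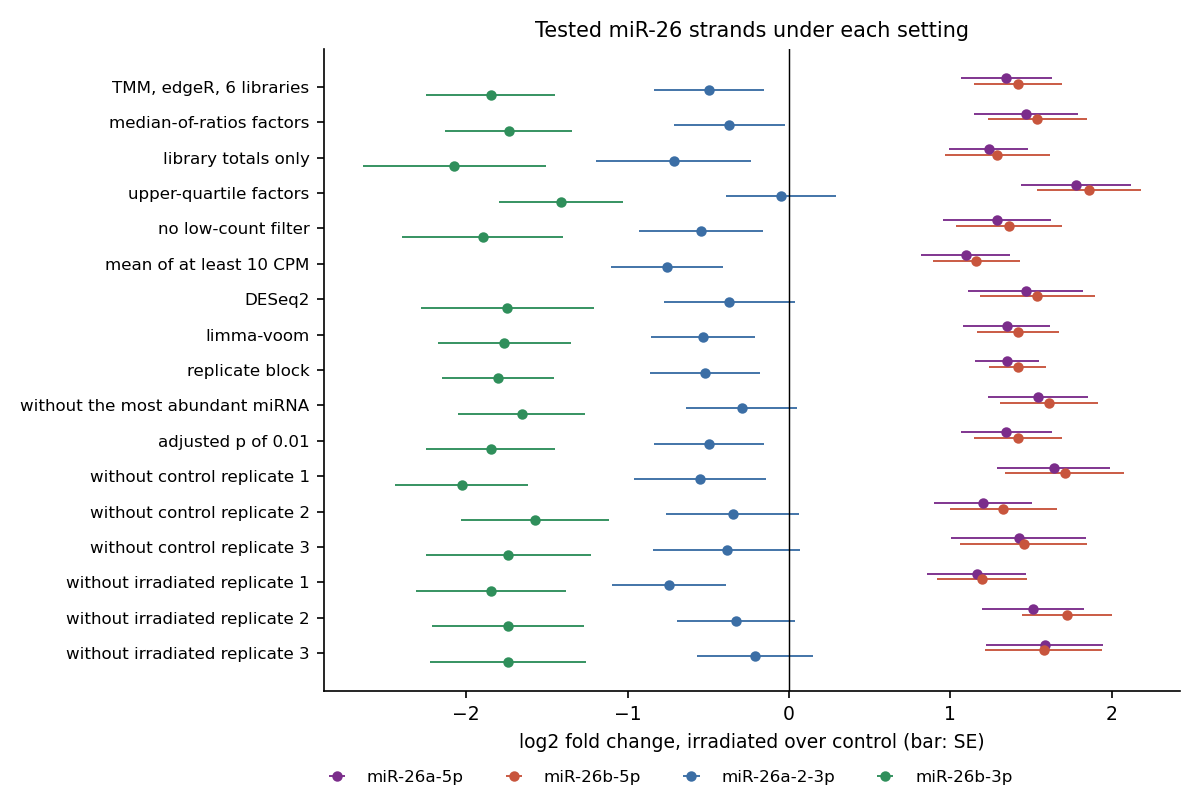
Log2 fold change of irradiated over control with its SE for the 4 tested miR-26 strands under each scaling, filter, test and left-out library. The guides stay between 1.09 and 1.86, miR-26b-3p between -2.07 and -1.41 and miR-26a-2-3p between -0.76 and -0.048, and miR-26b-3p has no value with a mean of at least 10 CPM.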

How the data were processed

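Small RNA of 6 thymus libraries was analysed, 3 control and 3 irradiated, grouped by the treatment label. The deposited table holds whole-number read counts per mature miRNA and library, per the file headers. The authors' TPM are those counts over the library total, scaled to a fixed sum, with no length term. The authors' log2 fold change and p-value columns compare irradiated with control mice, and the submitters' processing notes name DESeq2 1.10.1. Which aligner, counter and build were used is not given in the sources used here. Columns of counts for 6 samples outside the labels were left out.

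All miRNAs were fitted together with edgeR 4.0.16 in R 4.3.3 (TMM factors of 0.823 to 1.39, filterByExpr defaults, robust quasi-likelihood test, Benjamini-Hochberg adjustment over 519 miRNAs, threshold 0.05). Log2 ratios within libraries used counts + 0.5 and exact two-sided permutation tests (SciPy 1.17.1). The arm ratios of 132 precursors were fitted with limma 3.58.1, and again for 138 precursors chosen by mean level, both choices made after seeing the data. Both tools were tested on simulated data. Hairpins were folded with ViennaRNA 2.7.2. The binomial intervals cover counting error alone, and without molecular identifiers in the reads they may be too narrow even for that. The edgeR and limma intervals rest on the spread between libraries. Each SE of an edgeR log2 change was derived as its absolute value over the square root of the test's F statistic. The edgeR intervals used this SE with a t quantile. Replicate libraries were not copies of one another.

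Named miRNAs were the 5 members, the 5 most similar to each guide, and up to 4 of the most abundant of each of 2 lists; a further list is not reported here. Members and lists were chosen with earlier results of these data known. Alternatives were other scaling factors, filters, DESeq2 1.42.0, limma-voom, a replicate block, an adjusted p of 0.01, leaving out miR-21a-5p and leaving out each library.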

Additional observations from a re-analysis of the deposited data

How the results depend on the processing

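The calls for miR-26a-5p, miR-26b-5p and miR-26b-3p, and the lack of one for miR-26a-2-3p, were kept under all alternatives that gave a value (16, 16, 15 and 16). With 1 library left out, the log2 change was 1.16 to 1.64 for miR-26a-5p, 1.20 to 1.72 for miR-26b-5p, -2.03 to -1.57 for miR-26b-3p and -0.74 to -0.21 for miR-26a-2-3p. The highest adjusted p over the alternatives was 0.0167, 0.0162 and 0.027 for the first 3. The number of miRNAs called went from 318 to 210 with a mean of at least 10 CPM, where 313 were tested, and was 266 to 374 with 1 library left out. Upper-quartile factors moved the median over all tested miRNAs to 0.44 (log2, 0.014 with TMM). Of the miRNAs called, 59.7% were then higher, against 45.3% of those called with TMM. The limma fit across precursors, added after seeing the data, gave -3.16 for Mir26b and -1.87 for Mir26a-2, and both passed where the exact test cannot. With 1 library left out these were -3.63 to -2.83 and -2.19 to -1.57. The ratio of miR-26a-5p to miR-26b-5p ranged from -0.22 to 0.052, the latter without irradiated replicate 3. That of miR-26a-1-3p to miR-26a-5p, which rests on at most 5 counts a library, was -0.60 with 2 added to each count and ranged from -0.49 to 0.56 with 1 library left out. Let-7c-5p (-0.27, no call) was 0.18 with upper-quartile factors, 0.024 without control replicate 1 and 0.099 without irradiated replicate 2; the causes were not tested. Same-numbered libraries had correlations of deviations of 0.0994, -0.0244 and 0.23 over 519 miRNAs, and the other combinations had -0.254 to 0.108. With 3 libraries a group these values cannot decide whether the numbers pair the mice, and the labels do not say. With the replicate block 298 miRNAs were called, and the log2 change was 1.35 for miR-26a-5p, 1.42 for miR-26b-5p, -1.80 for miR-26b-3p and -0.52 for miR-26a-2-3p. Depth limits the passengers: 10 to 13 counts of miR-26b-3p per irradiated library and at most 5 of miR-26a-1-3p.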
